A study of Homo sapiens with 10 samples.

Results

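The amino acid and peptide transporters described here were the 64 genes with a protein_coding transcript whose symbol put them in the SLC1, SLC3, SLC6, SLC7, SLC15, SLC36, SLC38 or SLC43 family, out of 19655 genes with a protein_coding transcript in the tables. RNA was sequenced from Caco-2 cells, which derive from a human colon carcinoma and in culture come to resemble absorptive enterocytes. All 10 libraries came from a stable Caco-2 clone, selected with puromycin, that carried dCas9-KRAB, a cleavage-dead Cas9 fused to the KRAB repressor, which silences the gene that a guide RNA points it to. A second lentivirus with a hygromycin gene brought in either an empty guide plasmid (gCtl, 5 libraries) or a guide RNA driven by the U6 promoter against the long noncoding RNA LHFPL3-AS2 (g1, 3 libraries, and g2, 2 libraries). The study asked what changes in an epithelial cell when LHFPL3-AS2 is repressed, and both guides together (5 libraries) were compared with gCtl, and then each guide on its own.

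These carriers move amino acids, and in the SLC15 family small peptides, across the plasma membrane and the membrane of the lysosome. In the gut they take up the products of protein digestion at the brush border and pass them to the blood at the basolateral side, and in dividing cells they supply glutamine and essential amino acids. Several SLC7 proteins are light chains that reach the membrane only when paired with a heavy chain, SLC3A2 or SLC3A1. Lack of amino acids raises many of these genes through the transcription factor ATF4, and their cargo is sensed at the lysosome by the mTORC1 kinase complex.

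The libraries held 3838803 to 8730468 estimated counts, taken from reads that start near the 3′ end of polyadenylated RNA. The paper reports that qPCR found LHFPL3-AS2, the RNA that both guides target, reduced with each guide. In these libraries it showed no decrease with the guides. It lay at 0.840 to 3.73 RPM in gCtl (reads scaled to 1e+06 counts per library) and at 2.03 to 6.01 RPM with the guides (exact two-sided permutation test, p = 0.19). Each gCtl library held 4.39 to 20.7 of its counts and each guide library 13.2 to 44.0, and such low counts limit the comparison. Directions below are therefore those of the libraries labelled g1 and g2, called the guides or the libraries labelled knockdown. The labels do not say whether the libraries of a group were separate cultures, so the p-values measure the spread between these libraries. Replicate numbers used here follow the order of the samples in the series, since the labels give none. Of 13 markers of colon epithelium and enterocytes, 10 passed the expression filter, edgeR and DESeq2 called 0 of them with both guides together (3 had an unadjusted p under 0.05 in edgeR, and limma on log2(TPM + 1) called 2), and their summed level was 2063 to 2871 RPM in gCtl and 1995 to 2547 RPM with the guides. The summed level of 5 goblet markers was 60.6 to 80.3 RPM in gCtl and 43.3 to 119 RPM with the guides, and of 5 enteroendocrine markers 10.7 to 20.6 and 6.10 to 15.04 RPM. Of 6 fibroblast markers it was 17.6 to 38.5 RPM in gCtl and 6.86 to 19.6 RPM with the guides, and of 6 leukocyte markers 11.4 to 21.2 and 12.6 to 29.4 RPM. In these other lists edgeR called 1 goblet and 1 fibroblast marker with both guides together. By guide, edgeR called 2 epithelial markers higher and 1 lower with g2, 2 goblet markers higher with g2, 1 enteroendocrine marker lower with g1 and 1 fibroblast marker lower with each guide. FCGBP, a goblet mucus protein, was at 0 to 0.349 CPM (RPM after TMM normalization) in gCtl and 0.122 to 11.8 CPM with the guides, and PDGFRA, a receptor of mesenchymal cells, at 10.8 to 29.7 and 1.22 to 9.67 CPM. All libraries came from a Caco-2 clone, so the marker lists describe expression within it. The part of these markers in the results below was not tested, and in bulk RNA fewer cells in a given state and less RNA per cell cannot be told apart.

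Of the 64 transporters, 39 passed the expression filter (over 3 RPM in 20% or more of the 10 libraries), and 28 of these were over 3 RPM in every library. SLC3A1, SLC7A9 and SLC38A11 passed only through the guide libraries, having 1 gCtl library each over 3 RPM, and SLC6A12 only through gCtl. SLC38A11 is counted among the higher members below and was also called without the filter with both guides together, but not with g1. By family, 6 of 7 SLC1 members passed, both SLC3 heavy chains, 5 of 19 SLC6 members, 9 of 13 SLC7, 4 of 5 SLC15, 2 of 4 SLC36, 9 of 11 SLC38 and 2 of 3 SLC43 members. The SLC6 family holds the carriers of neurotransmitters, and SLC6A2, SLC6A5, SLC6A18 and the SLC7 member SLC7A4 had no count in any library, which allows up to 0.0528 RPM over all libraries (3 counts, counting error only). Low members also included brush border carriers. SLC6A19, the main neutral amino acid carrier of the small intestine, had 26 counts in all 10 libraries, SLC6A14, a carrier of neutral and cationic amino acids, had 51, and SLC36A2, a proton-coupled carrier of glycine and proline, had 79.1.

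Per transcript length, in TPM (RPM taken per length and rescaled), the heavy chain SLC3A2 (the CD98 heavy chain) stood first in gCtl with 135 ± 30.5 TPM (SD, n = 5). It was followed by the glutamate carrier SLC1A3 (118 ± 17.5 TPM), the glutamine carrier SLC1A5 (64.2 ± 19.7 TPM) and the system A carrier SLC38A2 (38.9 ± 9.42 TPM). The ranges of SLC3A2 and SLC1A3 overlapped, and so did those of SLC38A2, SLC38A1 (28.2 ± 2.72 TPM) and SLC7A7 (26.8 ± 4.89 TPM). In all, 12 members were over 10 TPM and 13 were under 3 TPM. The order depends on the division by length, although reads that start near the 3′ end are not expected to increase with transcript length. By RPM, SLC38A1 stood first in gCtl (mean 153 RPM), followed by SLC3A2 (112 RPM), SLC7A6 (107 RPM) and SLC1A5 (94.4 RPM). SLC7A8 ranked 7 by TPM and 16 by RPM. Some of the TPM order also rests on which transcript was given the reads. The leading transcript of SLC1A3 was 540 bases long and took 27.8% of its counts in gCtl, and that of SLC7A8 was 658 bases long and took 65.1%. SLC7A9, SLC6A6, SLC6A12, SLC38A6 and SLC38A10 had between 0% and 18.7% of their gCtl counts on protein_coding transcripts.

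With both guides together, 5 transporters were lower than in gCtl and 7 were higher, 12 of the 39 tested (30.8%), where a call is an adjusted p of at most 0.05 in edgeR's quasi-likelihood test with Benjamini-Hochberg adjustment over all 11640 genes tested and a change of at least 1.5-fold. Over all genes tested, 19.2% were called, 8.14% higher and 11.0% lower. The lower members were the glutamine carrier SLC1A5, the heavy chain SLC3A2, its light chain SLC7A5, SLC38A2 and SLC43A1, which together carry glutamine and large neutral amino acids across the plasma membrane. The higher members were the imino acid carrier SLC6A20, the cystine carrier SLC7A11, SLC38A11, SLC7A14, SLC36A4, SLC7A2 and SLC15A3. The median log2 fold change of the 39 members was -0.16, against 0.02 for all genes tested. In 10 members no library of one side overlapped the other, 4 higher and 6 lower, where 15.5% of all genes tested did not overlap (7.13% higher and 8.33% lower). SLC38A11, which passed the filter only through the guide libraries, is among the 7 and the 4 higher members and adds no support to these counts.

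SLC1A5 (ASCT2), which exchanges glutamine for other neutral amino acids, had the largest decrease. It lay at 62.5, 133, 88.8, 102 and 69.5 CPM in gCtl, at 42.3, 34.8 and 32.5 CPM with g1 and at 17.0 and 22.2 CPM with g2. Every library with a guide was below every gCtl library, and both g2 libraries were below all 3 g1 libraries. The log2 fold change was -1.62 (SE 0.24, adjusted p = 0.00048), from 91.3 ± 28.3 to 29.8 ± 10.1 CPM (SD, n = 5 each). With g1 it was -1.32 (SE 0.22) and with g2 -2.21 (SE 0.28), a difference of -0.89 between the guides (SE 0.28, adjusted p = 0.083) that did not pass the test. SLC1A5 lies on chromosome 19 (46774883 to 46788594, minus strand, GRCh38).

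SLC3A2 is the heavy chain that carries the light chains SLC7A5, SLC7A6, SLC7A7, SLC7A8 and SLC7A11 to the membrane. It lay at 126, 96.4, 123, 116 and 79.5 CPM in gCtl, at 54.3, 42.0 and 56.7 CPM with g1 and at 47.0 and 59.3 CPM with g2. The guides did not overlap gCtl, and the ranges of g1 and g2 overlapped. SLC3A2 fell by 1.06 on the log2 scale (SE 0.15, adjusted p = 0.00038), with -1.08 (SE 0.18) for g1 and -1.02 (SE 0.21) for g2. Protein_coding transcripts of SLC3A2 (chromosome 11, 62856102 to 62888875) held 91.1% of its counts in gCtl and 62.8% with the guides. The retained intron transcript SLC3A2-025 went the other way, from 210 counts in gCtl to 479 with the guides, and on protein_coding transcripts alone the log2 fold change of SLC3A2 was -1.57.

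SLC7A5 (LAT1), the exchanger of leucine and other large neutral amino acids, fell with its heavy chain. Its gCtl libraries had 17.2, 17.8, 18.3, 19.7 and 8.09 CPM, the g1 libraries 5.33, 5.27 and 6.58 CPM, and the g2 libraries 6.81 and 7.995 CPM. The fifth gCtl library stood apart from the other 4 and was only just above the second g2 library. On the log2 scale SLC7A5 fell by 1.33 (SE 0.24, adjusted p = 0.0017), with -1.48 (SE 0.28) for g1 and -1.12 (SE 0.32, adjusted p = 0.018) for g2. Without the fifth gCtl library the 5 lower members were all still called. The longer SLC7A5 transcript, SLC7A5-001, held 63.1% of the gene's counts in gCtl and 90.3% with the guides.

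SLC43A1 (LAT3), a facilitator of leucine and phenylalanine that works without a heavy chain, lay at 20.7, 31.0, 20.1, 16.1 and 23.9 CPM in gCtl. It was at 7.999, 11.6 and 7.31 CPM with g1 and at 10.6 and 14.5 CPM with g2, with no overlap between guides and gCtl. SLC43A1 fell by 1.11 on the log2 scale (SE 0.22, adjusted p = 0.0031). SLC43A2 (LAT4), which carries the same amino acids, was at 50.6 to 61.2 CPM in gCtl and 40.2 to 61.5 CPM with the guides and was not called (-0.13, SE 0.14).

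SLC38A2 (SNAT2) takes up neutral amino acids with sodium and is known to rise when amino acids run short. It lay at 83.2, 74.4, 95.7, 84.7 and 77.1 CPM in gCtl, at 46.8, 38.2 and 47.4 CPM with g1, and at 67.4 and 31.7 CPM with g2. All guide libraries were below gCtl, and the 2 g2 libraries were far apart. The log2 fold change was -0.84 (SE 0.17, adjusted p = 0.0035). The call was lost in limma on log2(TPM + 1) and log2(TPM + 0.1), and the fold change ran from -0.96 to -0.47 over the alternatives with all libraries. Its relative SLC38A1 (SNAT1), the member with the most reads, was at 134 to 184 CPM in gCtl and 94.2 to 146 CPM with the guides. With g1 its adjusted p was 0.017 at a log2 fold change of -0.53, which is under 1.5-fold.

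Among the higher members SLC6A20 (SIT1), which takes up proline and other imino acids at the brush border, changed most. It lay within 8.44 to 10.6 CPM in gCtl, at 20.7, 18.1 and 55.9 CPM with g1 and at 46.8 and 55.0 CPM with g2. The groups did not overlap, and the third g1 library was level with g2 while the other 2 were lower. The log2 fold change was 2.06 (SE 0.30, adjusted p = 0.00036), from 9.44 ± 0.837 to 39.3 ± 18.5 CPM (SD, n = 5 each), with 1.76 (SE 0.29) for g1 and 2.43 (SE 0.31) for g2. SLC6A20 (chromosome 3, 45755450 to 45796535, minus strand) had 99.6% of its gCtl counts on the protein_coding transcript SLC6A20-002.

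SLC7A11 (xCT), the light chain that takes up cystine in exchange for glutamate, lay at 9.996, 13.0, 9.42, 12.3 and 7.92 CPM in gCtl. It was at 15.5, 15.4 and 30.0 CPM with g1 and at 19.2 and 22.8 CPM with g2, above every gCtl library. SLC7A11 rose by 0.98 on the log2 scale (SE 0.22, adjusted p = 0.0059), with 0.96 (SE 0.25) for g1 and 1.001 (SE 0.28) for g2. The call of both guides together was lost in limma on log2(TPM + 1), where the fold change was 0.58. The antisense gene SLC7A11-AS1 covers its 3′ end and had 83.3 counts over the series, and whether the counting used strand is not stated in the sources used here.

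SLC7A2 (CAT2), a carrier of arginine and lysine, lay at 14.1 to 24.5 CPM in gCtl, at 27.3, 31.0 and 23.0 CPM with g1 and at 49.7 and 40.3 CPM with g2. Only the third g1 library fell within the gCtl range, and the log2 fold change was 0.84 (SE 0.21, adjusted p = 0.011). The difference between the guides was 0.73 (SE 0.22, adjusted p = 0.07). SLC7A1 (CAT1), which carries the same amino acids, was at 39.9 to 56.6 CPM in gCtl and 27.8 to 47.7 CPM with the guides, and was not called (-0.28, SE 0.18).

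SLC36A4 (PAT4), a carrier of proline and tryptophan, was at 5.76 to 9.50 CPM in gCtl and at 14.8, 15.2, 14.5, 16.5 and 9.30 CPM in the g1 and g2 libraries. The second g2 library alone lay within the gCtl range (log2 fold change 0.85, SE 0.22, adjusted p = 0.012). SLC36A1 (PAT1), the proton-coupled carrier of small amino acids at the brush border and the lysosome, was at 10.6 to 14.2 CPM in gCtl and 6.63 to 11.9 CPM with the guides and was not called (-0.45, SE 0.20). SLC7A14, a member of the cationic branch of SLC7, was at 5.25 to 10.03 CPM in gCtl and 9.83 to 21.1 CPM with the guides (0.89, SE 0.25, adjusted p = 0.019). SLC38A11 was at 2.09 to 2.94 CPM in gCtl and 3.50 to 7.38 CPM with the guides, without overlap (1.10, SE 0.30, adjusted p = 0.016). Both SLC7A14 and SLC38A11 were no longer called on protein_coding transcripts alone, which held 67.7% and 80.0% of their gCtl counts.

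Of the peptide carriers, only SLC15A3, a lysosomal carrier of histidine and small peptides, was called. It lay at 1.94 to 3.66 CPM in gCtl and at 4.07 to 7.17 CPM with the guides, with a log2 fold change of 0.83 (SE 0.28, adjusted p = 0.044). The call held in 5 of 12 alternatives with all libraries (log2 fold change 0.60 to 1.05) and was lost with library totals, no filter, the 3 limma fits, protein_coding transcripts alone and the test against 1.5-fold. It held in 1 of the 10 fits that left out 1 library, the one without the second g2 library (0.69 to 0.91). SLC15A1 (PEPT1), the peptide carrier of the intestinal brush border, was at 4.25, 5.32, 5.41, 6.26 and 3.87 CPM in gCtl, at 6.17, 6.33 and 11.8 CPM with g1 and at 8.79 and 7.27 CPM with g2. Its highest gCtl library overlapped the lowest g1 library, and its log2 fold change of 0.69 (SE 0.25, adjusted p = 0.058) did not pass, except without the first g1 library (up to 0.78 over the libraries left out) and in limma on log2(TPM + 0.1). SLC15A2 (PEPT2) and the lysosomal SLC15A4 were not called (0.56, SE 0.30, and -0.26, SE 0.22).

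The remaining brush border and lysosome carriers fixed for description were not called with both guides. SLC1A1 (EAAT3), the glutamate carrier of enterocytes, was at 2.64 to 8.18 CPM in gCtl and 3.38 to 4.75 CPM with the guides (log2 fold change -0.50, SE 0.30). The cystine and dibasic amino acid carrier SLC7A9 and its heavy chain SLC3A1 were near the filter, at 0.352 to 3.49 and 1.10 to 3.14 CPM in gCtl, with log2 fold changes of 0.83 (SE 0.50) and 0.88 (SE 0.37, adjusted p = 0.094). SLC3A1 shares its 3′ end with PREPL on the other strand, which had 2816 counts. The basolateral light chain SLC7A8 (LAT2) was at 13.6 to 19.7 CPM in gCtl and 6.58 to 20.0 CPM with the guides (-0.37, SE 0.27). SLC38A9, which senses arginine at the lysosome for mTORC1, was at 3.67 to 8.18 and 2.11 to 8.43 CPM (0.01, SE 0.37). A further 2 members were called with 1 guide. SLC7A7 (y+LAT1), the basolateral exporter of dibasic amino acids, was at 37.6 to 59.7 CPM in gCtl, 23.0 to 37.9 CPM with g1 and 28.5 to 30.1 CPM with g2, and was called with g2 (-0.65, SE 0.22, adjusted p = 0.042). SLC1A3 (EAAT1) was at 82.6 to 94.5 CPM in gCtl, at 75.2, 49.4 and 34.3 CPM with g1 and at 80.0 and 70.4 CPM with g2, and was called with g1 (-0.72, SE 0.20, adjusted p = 0.017). All guide libraries of SLC1A3 were below gCtl, while its fold with both guides, -0.50 (SE 0.19, adjusted p = 0.072), did not pass.

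By guide, g1 called 10 of the 39 members, 4 higher and 6 lower, where 16.8% of all genes tested were called (6.81% higher and 9.94% lower). The g2 libraries called 11, 5 higher and 6 lower, where 23.7% of all genes were called (10.7% higher and 13.0% lower). Both comparisons use the same 5 gCtl libraries. The members called with each guide in the same direction were 8: SLC1A5, SLC3A2, SLC7A5, SLC38A2 and SLC43A1 lower and SLC6A20, SLC7A11 and SLC38A11 higher. Of all genes tested, 9.28% were called with each guide in the same direction (3.57% higher and 5.71% lower). SLC38A11 passed the expression filter only through the guide libraries, so it adds no support to this count. Its g1 call held in 4 of 13 alternatives with all libraries, and was lost in DESeq2, without the filter and in the limma fits. Between g2 and g1 edgeR called no member, where 4.98% of all genes tested were called, and 5 members had an unadjusted p under 0.05. DESeq2 called 3 members between the guides (SLC1A5, SLC6A8 and SLC7A2) and limma on log2(RPM + 1) called 2 (SLC1A5 and SLC6A8). SLC6A8, the creatine carrier, was at 4.50, 5.27 and 2.68 CPM with g1 and at 1.61 and 0.436 CPM with g2, a log2 difference of -2.02 (SE 0.62, adjusted p = 0.072).

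With 3 and 2 libraries, single libraries decided part of the guide calls. Leaving out either g2 library leaves 1, which is then assumed to vary like the libraries of gCtl and g1. Without the second g2 library, SLC7A5, SLC7A7, SLC7A11, SLC7A14, SLC38A2, SLC38A11 and SLC43A1 no longer passed with g2. SLC6A12 and SLC36A4, not called with g2 when all libraries were used, were then gained. Without the first g2 library, SLC7A5, SLC7A7 and SLC43A1 were lost, while SLC1A6, SLC6A8, SLC15A4 and SLC38A10 were gained. Of the gCtl libraries, leaving out replicate 2 ended the g2 calls of SLC7A7 and SLC43A1, replicate 3 those of SLC7A7, SLC38A2 and SLC38A11, and replicate 4 those of SLC7A7 and SLC38A11. Over the libraries left out the log2 fold change of SLC38A2 with g2 ran from -1.39 to -0.30, of SLC43A1 from -1.08 to -0.63, of SLC7A5 from -1.30 to -1.02, of SLC7A7 from -0.71 to -0.53 and of SLC38A11 from 0.94 to 1.46. For SLC7A11 and SLC7A14 with g2 it ran from 0.87 to 1.11 and from 0.77 to 1.45. With g1, SLC38A11 was called in 3 of these 10 fits (0.67 to 1.21). SLC1A3 was lost without g1 replicate 2 or 3 (-1.07 to -0.50), and SLC7A11 without g1 replicate 3 (0.54 to 1.13). SLC1A5, SLC3A2 and SLC6A20 were called with each guide in all 10.

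**Figure D1:**
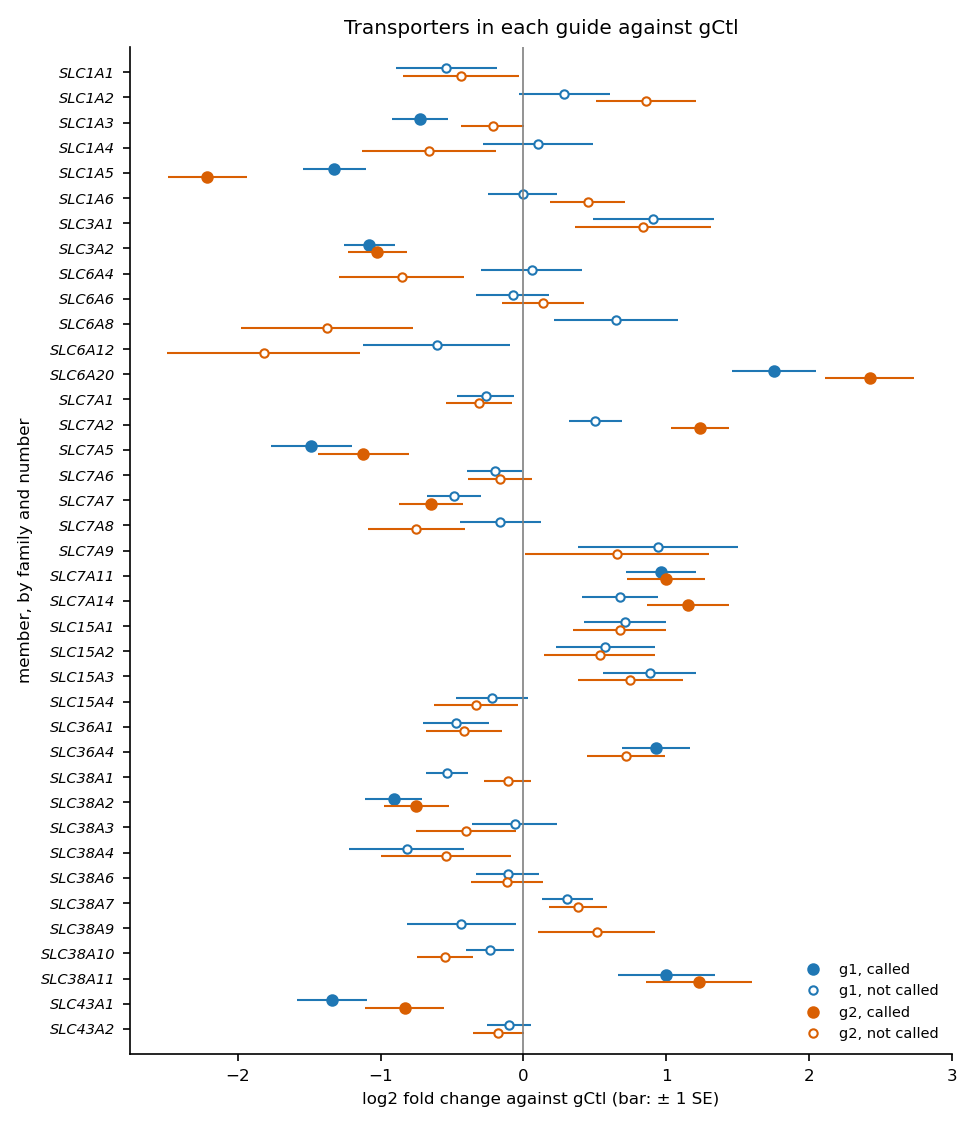
Log2 fold change of each of the 39 transporters with g1 and with g2 against gCtl, with bars of 1 SE. Filled points are called. Both guides are filled for 8 members, from SLC1A5 (-1.32 and -2.21) to SLC6A20 (1.76 and 2.43).

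The 64 transporters together took less of the sequenced RNA with the guides. Their summed level was 999 to 1160 RPM in gCtl (mean 1114 ± 66.7, SD, n = 5) and 809 to 906 RPM with the guides (mean 849 ± 38.8, n = 5), without overlap. The sum of the 5 lower members went from 258 to 369 RPM in gCtl to 127 to 163 RPM with the guides. The other 59 members summed to 741 to 833 RPM in gCtl and 675 to 778 RPM with the guides. Only the second g2 library (778 RPM) lay within that gCtl range. The mean of the 59 went from 783 to 708 RPM, and that of the 5 from 332 to 140 RPM. Since the 5 were chosen by their decrease, their sum describes part of the difference and is no test of it.

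**Figure D2:**
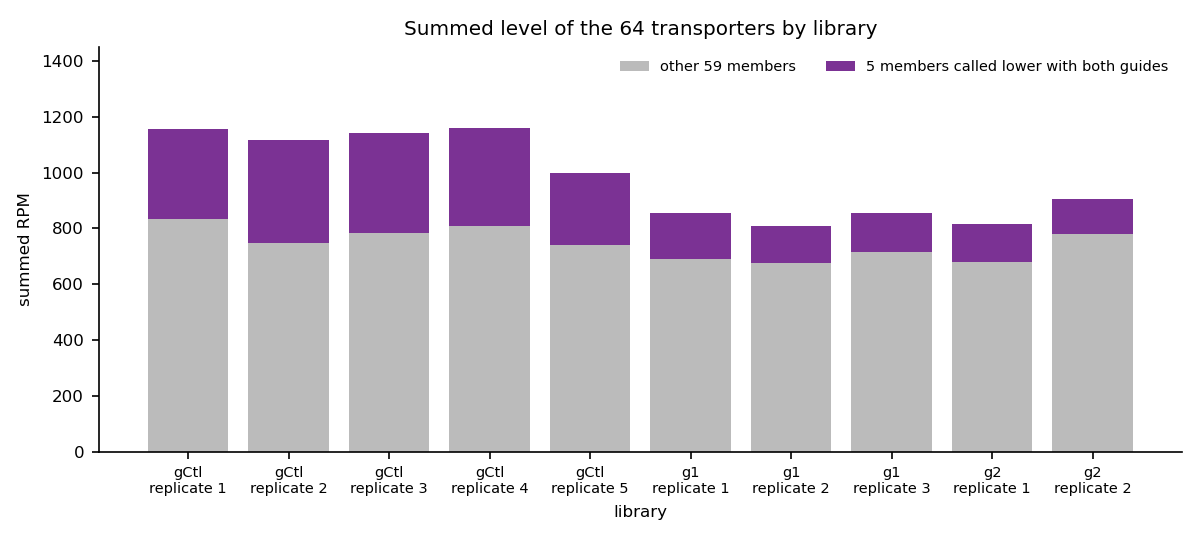
Summed RPM of the 64 transporters in each library, split into the 5 members called lower with both guides (purple) and the other 59 (grey). The RPM values are not TMM-normalized. The total is 999 to 1160 RPM in gCtl and 809 to 906 RPM in g1 and g2, and the purple part shrinks from 258 to 369 RPM to 127 to 163 RPM.

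As light and heavy chains work in pairs, the counts of each light chain were also taken over those of its heavy chain in the same library (6 ratios, exact two-sided permutation tests of log2 ratios, smallest possible p 0.00794). SLC7A11 over SLC3A2 was 0.0812, 0.137, 0.0780, 0.107 and 0.102 in gCtl, 0.287, 0.370 and 0.529 with g1 and 0.411 and 0.386 with g2. Every guide library was above every gCtl library, and the ratio was 3.94-fold higher with the guides (log2 difference 1.98, exact p = 0.00794, adjusted 0.0238). SLC7A6 (y+LAT2) over SLC3A2 ran from 0.801 to 1.20 in gCtl and from 1.41 to 2.11 with the guides, 1.80-fold higher without overlap (exact p = 0.00794, adjusted 0.0238). SLC7A6 itself was not called, at 79.0 to 130 CPM in gCtl and 72.4 to 120 CPM with the guides (-0.19, SE 0.17). SLC3A2, the denominator of these ratios, was itself called lower with the guides (log2 fold change -1.06). A ratio over SLC3A2 therefore rises even where the light chain is unchanged, and that of SLC7A11 restates its own rise together with this fall. The p-values of these ratios are thus no separate evidence beside the calls of the single genes. The ratios of SLC7A7 (log2 difference 0.50, exact p = 0.032, adjusted 0.063) and SLC7A8 (0.58, exact p = 0.18, adjusted 0.25) to SLC3A2 did not pass. That of SLC7A5 to SLC3A2 was 0.104 to 0.186 in gCtl and 0.101 to 0.148 with the guides (-0.23, exact p = 0.21, adjusted 0.25). SLC7A9 over SLC3A1, both at few counts, did not pass either (0.03, exact p = 0.95, adjusted 0.95).

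**Figure D3:**
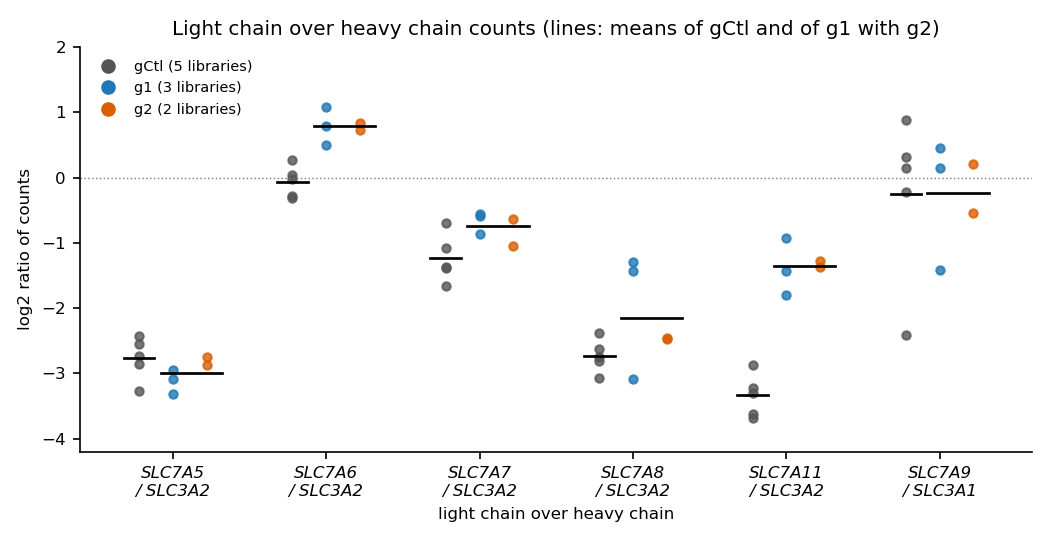
Log2 ratio of light chain to heavy chain counts in each library for 6 pairs. Points are libraries and lines the means of gCtl and of g1 with g2. SLC7A6 and SLC7A11 over SLC3A2 lie above gCtl in all 5 guide libraries (differences 0.85 and 1.98), and the other 4 ratios overlap. SLC3A2 itself was called lower with the guides.

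Promoter windows of RefSeq (GRCh38.p14, 250 bases before to 50 after the start) were available for 48 of the 64 members and 31 of the 39 tested, and were searched on both strands for 2 motifs tied to this biology. The called members SLC7A2, SLC7A11 and SLC15A3, all higher with both guides together, had no window and were not searched. TGATGNAA is the C/EBP-ATF response element, to which ATF4 binds, and CACGTG is the E-box bound by MYC and its relatives. The first was present in 4 of the 31 tested members (3.67% of all 27305 promoters) and the second in 3 (7.43%), and none of these matches overlapped. The windows below show the motif in capitals with up to 10 bases on each side, as read along the gene's strand.
SLC1A3, chr5:36596358-36596385: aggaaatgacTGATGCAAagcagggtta
SLC3A2, chr11:62881726-62881748: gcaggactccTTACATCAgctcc
SLC7A1, chr13:29595664-29595691: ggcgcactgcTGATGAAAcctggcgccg
SLC38A1, chr12:46266503-46266530: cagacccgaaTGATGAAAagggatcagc
SLC7A5, chr16:87869622-87869647: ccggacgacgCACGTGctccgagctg
SLC43A1, chr11:57515799-57515824: gcgggcgagtCACGTGcgcgtgaaac
SLC38A7, chr16:58684741-58684766: gatgcatgctCACGTGtctccgcagc
The SLC3A2 match is on the other strand. SLC3A2, SLC7A5 and SLC43A1 were lower with both guides and SLC1A3 with g1, while SLC7A1, SLC38A1 and SLC38A7 (0.34, SE 0.16), a lysosomal glutamine carrier, were not called. Only 1 window per gene was searched, so other start sites were not covered. The SLC3A2 match lies inside the gene (GENCODE 29 start 62856102). That of SLC1A3, at 36596358, lies upstream of the gene's GENCODE 29 start (36606355). Which start sites were in use cannot be read from 3′ reads. A match describes letters only, and binding was not measured.

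The genes around the transporters were read from 5 lists, whose called shares stand against 19.2% of all genes tested. Of 40 tested genes of amino acid sensing by mTORC1, 3 were higher and 6 lower with both guides, a share of 22.5% near that of all genes (median log2 fold change 0.02, as for all genes tested). The lower ones included RRAGA, a Rag GTPase (-1.50, SE 0.29, adjusted p = 0.0021), and LAMTOR2 (-1.67, SE 0.47, adjusted p = 0.019) and LAMTOR1 (-1.001, SE 0.15, adjusted p = 0.00053), subunits of the lysosomal anchor of the Rag GTPases. RRAGD, another Rag GTPase, was higher (1.65, SE 0.49, adjusted p = 0.023), at 0.722 to 3.67 CPM in gCtl and 2.33 to 15.8 CPM with the guides. The RRAGD call was lost without gCtl replicate 1 or 4 or g1 replicate 3, and the LAMTOR2 call without gCtl replicate 3. Without the third g1 library 5 genes of the list were called.

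In the ATF4 amino acid response, 1 of 39 tested genes was higher and 3 were lower (10.3%, median 0.00075). ATF4 itself was not called (-0.17, SE 0.16). ATF3, a stress-induced relative, was higher (1.29, SE 0.34, adjusted p = 0.013), while the transcription factor CEBPB (-1.24, SE 0.40, adjusted p = 0.036) and the serine synthesis enzymes PSAT1 (-1.15, SE 0.32, adjusted p = 0.018) and PHGDH (-0.79, SE 0.20, adjusted p = 0.012) were lower. The call of PSAT1 was lost without the fourth gCtl library, and 2 genes of the list then passed. That of CEBPB was lost without any one of 8 libraries, all but the fifth gCtl and the first g2 library (-1.75 to -1.08 over all alternatives).

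Of 31 tested genes of glutamine, serine and glutathione metabolism, 2 were higher and 9 lower (35.5%, median -0.33). The glutathione enzyme GCLC was among the higher genes (0.93, SE 0.20, adjusted p = 0.0049). The branched-chain aminotransferase BCAT1 fell by 1.42 on the log2 scale (SE 0.24, adjusted p = 0.001). BCAT1 also differed between the guides (-1.01, adjusted p = 0.026). The lower genes also included GLUD1, GOT2, ASS1, ODC1, BCAT2, PHGDH and PSAT1.

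Of 17 tested amino acid carriers of other SLC families, none was higher and 3 mitochondrial carriers were lower (17.6%, near the share of all genes, median -0.20), the glutamate carrier SLC25A22 (-1.17, SE 0.28, adjusted p = 0.0077), the glycine carrier SLC25A38 (-0.63, SE 0.19, adjusted p = 0.027) and the glutathione carrier SLC25A39 (-0.85, SE 0.20, adjusted p = 0.0067). The SLC25A38 call was lost without gCtl replicate 2, 3 or 4 or g2 replicate 2, and without the first g1 library 5 genes of the list passed. Of 10 tested accessory proteins and peptidases, 2 were higher and 2 lower (40.0%, median -0.07). The higher ones included the brush border protease MEP1A (1.89, SE 0.45, adjusted p = 0.0075). The lower ones were PDZK1, a scaffold of brush border carriers (-1.02, SE 0.20, adjusted p = 0.0028), and ATP1B1, a subunit of the sodium pump that drives many of these carriers (-0.67, SE 0.23, adjusted p = 0.043). The ATP1B1 call was lost without any one of 8 libraries, all but the first and second g1 libraries.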

How the data were processed

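Single-end Lexogen QuantSeq 3′ libraries of Caco-2 cells were sequenced, and the authors quantified transcripts with Kallisto (given as version 42.5 in the submitters' processing notes) on GENCODE 24. The deposited values were estimated counts per transcript, 1 table per library, neither normalized nor summed per gene; whether the counting used strand is not given in the sources used here. With 3′ reads, estimates between transcripts that share an end are uncertain, which moves TPM and transcript shares.

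Here estimated counts were summed per gene. RPM was taken over all counts of a library, and TPM was computed from annotated transcript lengths. A gene with a protein_coding transcript was tested if it exceeded 3 RPM in at least 20% of the 10 libraries. Rounded sums went into edgeR 4.0.16 under R 4.3.3 (TMM, glmQLFit, glmQLFTest), with g1 and g2 as 1 group or, in a second fit, as 3 groups. Calls needed a change of 1.5-fold or more and an adjusted p no higher than 0.05. SEs are the log2 fold change over the square root of F, and CPM values are TMM-normalized. Light over heavy chain ratios used counts plus 1 and exact permutation tests (scipy 1.17.1). Alternatives were DESeq2 1.42.0, edgeR with DESeq2's size factors, with upper quartile scaling or with library totals, no filter, filterByExpr, limma 3.58.1 on log2(RPM + 1), log2(TPM + 1) and log2(TPM + 0.1), protein_coding transcripts alone, pseudogene counts added, a test against a 1.5-fold change (glmTreat), only the 2 groups compared, and the omission of each library. Simulated counts with known changes were used to test the fits.

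Totals of 3838803 to 8730468 counts set the precision, so 1 count was worth 0.115 to 0.260 RPM. No 2 libraries of a group agreed within sampling noise (chi-square per degree of freedom 4.25 to 24.3 over 14 pairs), and each counted as 1 replicate. Named were members called in any comparison, 18 carriers fixed by role, members with a library far from its group, and up to 4 called genes with the largest change in each list. GCLC, GLUD1, GOT2, ASS1, ODC1, BCAT2, ATF4, SLC6A8, SLC38A7, SLC43A2, SLC7A6, SLC15A2 and SLC15A4 were named beside these after their values were seen. The members, lists and tests were chosen with earlier results of these data known. Gene positions are those of GENCODE 29 (GRCh38), and the deposited tables hold no coordinates. Some genes of the lists are counted but not reported by name here.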

Additional observations from a re-analysis of the deposited data

Results flagged for a closer look

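Groups of 5 libraries (39 members, gCtl and the libraries labelled knockdown) numbered 78. In 6 of them the highest or lowest library was far from the other 4 by Dixon's criterion. The criterion flags 1 group in 20 by chance where all values share a single normal distribution, and the knockdown groups pool g1 and g2. Whether chance accounts for the flags was not tested. SLC7A5 was at 8.09 CPM in gCtl replicate 5 against 17.2 to 19.7 CPM in the other gCtl libraries. SLC6A6, the taurine carrier, was at 14.2 CPM in gCtl replicate 1 against 22.8 to 26.0 CPM. Among the libraries labelled knockdown, SLC1A4 (ASCT1), a carrier of alanine, serine and cysteine, was at 10.8 CPM in g1 replicate 1 against 3.95 to 5.27 CPM, and the serotonin carrier SLC6A4 was at 7.38 CPM in g1 replicate 2 against 2.51 to 3.90 CPM. In g2 replicate 2 SLC1A6 (EAAT4) was at 21.4 CPM against 11.1 to 12.2 CPM, and SLC36A4 at 9.30 CPM against 14.5 to 16.5 CPM.

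SLC7A11-AS1, which is no member because it has no protein_coding transcript, was at 1.93 ± 0.661 RPM in the libraries labelled knockdown and 0.802 ± 0.271 RPM in gCtl (SD, n = 5 each), with no overlap (p = 0.00794 by a two-sided exact permutation test, the lowest value possible with 5 against 5; adjusted over 8 genes below the filter, 0.0635). It overlaps the 3′ end of SLC7A11 on the other strand. Reads of the 2 genes cannot be told apart if the counting ignored strand, and this was not tested.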

How the results depend on the processing

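No reported fold change that was called reversed its sign. Of 3549 fold changes of the 39 members under the alternatives, 3269 stayed on their side of the threshold, 93 lost and 54 gained a call, and 133 uncalled values changed sign. Of the 12 calls with both guides, the test against a 1.5-fold change left 4 (SLC1A5, SLC3A2, SLC6A20 and SLC7A5), of 10 with g1 it left 5 and of 11 with g2 it left 3, and limma on log2(TPM + 0.1) gave 6 calls with g1, 5 of them shared. Protein_coding transcripts alone left 7 with g2. Leaving out 1 library gave 6 to 13 calls with g2, with 6 without g2 replicate 2. Between g2 and g1, where edgeR called 0, DESeq2 called 3, limma on log2(RPM + 1) called 2, no filter gave 1, and leaving out 1 library gave 0 to 1. On TPM the log2 ratio of SLC7A5 to SLC3A2 was 0.24, that of SLC7A9 to SLC3A1 -0.35, and that of SLC7A7 to SLC3A2 0.73, which passed (adjusted p = 0.048). Over the libraries left out SLC7A7 to SLC3A2 ran from 0.39 to 0.63, and passed without gCtl replicate 2 (0.63, adjusted p = 0.032), and SLC7A9 to SLC3A1 ran from -0.51 to 0.32, with -0.51 without gCtl replicate 5. The causes were not tested. Scaling by library totals moved the median of all genes tested to -0.16 for g2 and -0.10 between the guides, and g2 then had 13 calls. No paired analysis was possible because the labels carry no replicate numbers, and those used here only follow the order of the samples. Members at few counts, such as SLC7A9, SLC3A1 and SLC38A11, are limited by depth.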

Other observations

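Of the members below the filter, 7 had at least 20 counts over all libraries and were compared on RPM by an exact permutation test each (two-sided), adjusted over these and SLC7A11-AS1. None of them passed. SLC36A2 was at 0.900 ± 0.676 RPM in gCtl and 1.76 ± 1.37 RPM with the guides (exact p = 0.24, adjusted 0.38), and the GABA carrier SLC6A11 at 0.607 ± 0.245 and 1.20 ± 0.860 RPM (exact p = 0.11, adjusted 0.30; SD, n = 5 each). SLC6A19 was at 0.275 ± 0.279 and 0.612 ± 0.467 RPM (exact p = 0.20, adjusted 0.38) and SLC6A14 at 1.15 ± 0.730 and 0.705 ± 0.641 RPM (exact p = 0.39, adjusted 0.52).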
